A study of Mus musculus with 16 samples.

Results

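Of the 13247 regions of 1100 to 6900 bp in the deposited H3K4me3 list, 420 (3.17%) shared at least 1 bp with a region of the deposited H3K27me3 list, and these 420 overlap regions are described here. The whole H3K4me3 list held 26654 regions. The regions were chosen by their width and by their overlap with H3K27me3, so widths and H3K27me3 values are given as description without a test. The lists came from chromatin immunoprecipitation followed by sequencing (ChIP-seq) in immortalized mouse embryonic fibroblasts. The experimental line was R26M2rtTA/+;TetOcre;Sdhcfl/fl and the control line R26M2rtTA/+;TetOcre;Sdhcfl/wt, so both lines carried an inducible Cre and at least 1 floxed copy of Sdhc, which encodes a subunit of succinate dehydrogenase. Both lines had received doxycycline at 1 µg/mL and were taken at day 16. Each line gave 2 samples for each of the antibodies against succinyllysine, H3K4me3 and H3K27me3 and 2 samples of input chromatin, 16 samples in all, and the labels do not say whether the 2 samples of a line were separate cultures.

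The files give 1 list per antibody with a start and an end for each region and no height, score or value per sample. The fl/fl and fl/wt lines could therefore not be compared. Whether H3K4me3 and H3K27me3 lay in the same line, the same cell, the same allele or the same nucleosome at an overlap region cannot be told apart. Read depth is unknown, each list is a single observation, and the 95% intervals below are exact Clopper-Pearson intervals that cover counting error only. The H3K4me3 list covered 50.4 Mb, the H3K27me3 list covered 88.4 Mb in 98342 regions, and the succinyllysine list covered 7.50 Mb in 10888 regions. Of 10 fibroblast marker genes, 9 had an H3K4me3 region within 1000 bp of a gene end, all but Thy1, and 0 had H3K27me3 there. Of 5 neuronal marker genes, 1 had H3K4me3 and 4 had H3K27me3 at an end. Of 7 epithelial marker genes, 3 had H3K4me3 and 3 had H3K27me3 there. Of 6 haematopoietic and endothelial marker genes, 3 had H3K4me3 and 1 had H3K27me3. Of 5 muscle marker genes, 0 had H3K4me3 and 1 had H3K27me3. None of the 33 genes of the fibroblast, epithelial, haematopoietic and endothelial, neuronal and muscle marker lists lay at an overlap region.

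H3K4me3 is written by the Set1 and MLL (trithorax group) methyltransferases and is typical of CpG island promoters. H3K27me3 is written by Polycomb repressive complex 2 (PRC2) and marks genes held silent by the Polycomb system. Promoters that carry both marks were described as bivalent in embryonic stem cells, where many belong to developmental regulators that are silent or lowly transcribed and can later be resolved towards either mark.

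Promoters from 3 kinds of overlap region are printed first, as examples of the bases at the genes named below; they were chosen after values were seen and no difference between the kinds is drawn from them. Each run is the 250 bases before an annotated start, 5′ to 3′ on the strand of the gene, from RefSeq on GRCm38.p6, which shares its coordinates with mm10. Each CpG dinucleotide is in capitals. The first 3 show overlap regions with H3K27me3 at an edge whose start base lay outside H3K27me3: Sox2 (a factor of neural and pluripotent progenitors), Foxd1 (a forkhead factor of kidney stroma) and Eomes (a T-box factor of mesoderm and brain progenitors).
Sox2, chr3:34649745-34649994, plus strand: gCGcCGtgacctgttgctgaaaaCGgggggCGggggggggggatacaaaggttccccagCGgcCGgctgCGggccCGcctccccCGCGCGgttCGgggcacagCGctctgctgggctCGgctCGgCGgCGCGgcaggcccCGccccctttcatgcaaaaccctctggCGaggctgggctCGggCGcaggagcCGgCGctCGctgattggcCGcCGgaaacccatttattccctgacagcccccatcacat
Foxd1, chr13:98353995-98354244, plus strand: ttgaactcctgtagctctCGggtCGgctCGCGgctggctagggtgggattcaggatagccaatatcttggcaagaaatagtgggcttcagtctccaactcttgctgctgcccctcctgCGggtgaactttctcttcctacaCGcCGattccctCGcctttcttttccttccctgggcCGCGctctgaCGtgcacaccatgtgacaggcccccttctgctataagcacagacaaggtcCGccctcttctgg
Eomes, chr9:118477939-118478188, plus strand: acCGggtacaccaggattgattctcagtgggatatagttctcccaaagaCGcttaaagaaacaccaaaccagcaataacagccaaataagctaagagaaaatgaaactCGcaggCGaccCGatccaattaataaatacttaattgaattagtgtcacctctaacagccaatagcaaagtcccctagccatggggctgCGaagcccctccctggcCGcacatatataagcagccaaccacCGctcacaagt
The next 2 show fully covered overlap regions at developmental factors, where the start base itself lay in H3K27me3: Prox1 (a homeobox factor of lymphatic endothelium and liver) and Lhx1 (a LIM homeobox factor of kidney and head).
Prox1, chr1:190170828-190171077, minus strand: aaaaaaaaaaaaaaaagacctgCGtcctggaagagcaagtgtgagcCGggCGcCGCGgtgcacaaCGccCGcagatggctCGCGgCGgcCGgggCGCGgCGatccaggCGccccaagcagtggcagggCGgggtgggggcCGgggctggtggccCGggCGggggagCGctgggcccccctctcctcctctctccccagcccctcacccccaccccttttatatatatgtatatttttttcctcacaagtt
Lhx1, chr11:84525535-84525784, minus strand: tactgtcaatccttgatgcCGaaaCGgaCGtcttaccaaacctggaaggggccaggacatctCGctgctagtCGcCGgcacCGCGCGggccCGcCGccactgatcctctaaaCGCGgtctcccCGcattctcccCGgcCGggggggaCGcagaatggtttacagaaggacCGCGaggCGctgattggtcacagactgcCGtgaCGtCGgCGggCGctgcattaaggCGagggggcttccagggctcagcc
The last 3 show genes whose overlap region also touched succinyllysine: Tfap2b (an AP-2 factor of neural crest and kidney), Zfp985 (named as a zinc finger protein) and Chil4 (a chitinase-like protein).
Tfap2b, chr1:19211804-19212053, plus strand: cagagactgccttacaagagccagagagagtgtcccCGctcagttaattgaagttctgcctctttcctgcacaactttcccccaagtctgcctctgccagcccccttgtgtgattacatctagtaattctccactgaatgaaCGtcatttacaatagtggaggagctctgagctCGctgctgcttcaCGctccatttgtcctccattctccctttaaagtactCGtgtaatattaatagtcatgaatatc
Zfp985, chr4:147553027-147553276, plus strand: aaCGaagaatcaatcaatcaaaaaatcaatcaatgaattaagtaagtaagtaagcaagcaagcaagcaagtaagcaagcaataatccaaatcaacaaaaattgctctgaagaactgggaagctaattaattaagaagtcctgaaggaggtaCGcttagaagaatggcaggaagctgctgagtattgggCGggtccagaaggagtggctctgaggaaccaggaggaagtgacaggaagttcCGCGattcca
Chil4, chr3:106219480-106219729, minus strand: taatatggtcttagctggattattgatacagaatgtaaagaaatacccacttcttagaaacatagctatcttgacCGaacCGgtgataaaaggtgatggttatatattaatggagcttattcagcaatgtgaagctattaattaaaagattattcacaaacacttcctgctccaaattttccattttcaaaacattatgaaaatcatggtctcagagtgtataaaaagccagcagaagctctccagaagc
The printed stretches held 27 CpG at Sox2, 12 at Foxd1, 8 at Eomes, 20 at Prox1 and 26 at Lhx1. They held 5 CpG at Tfap2b, 5 at Zfp985 and 2 at Chil4. The starts of Zfp985 and Chil4 lay 224 and 722 bp outside their overlap region, and the other 6 lay inside it.

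Most overlap regions met H3K27me3 at an edge, and few lay wholly within it. H3K27me3 reached over 1 edge in 238 of the 420 (56.7%, interval 51.8 to 61.5) and over both edges in 70 (16.7%, 13.2 to 20.6). Full coverage was found in 60 (14.3%, 11.1 to 18.0): 51 lay inside a single H3K27me3 region, and 9 were covered by H3K27me3 regions that adjoin each other without a gap. In the remaining 52 (12.4%, 9.39 to 15.9) the H3K27me3 lay within the H3K4me3 region and reached past neither edge. The median shared length was 800 bp, with a range of 100 to 5800 bp on a grid of 100 bp. The median share of an overlap region covered by H3K27me3 was 46.2% (quartiles 25.0 to 78.3). At most 50% was covered in 233 (55.5%), and the midpoint was covered in 159 (37.9%). Contact of no more than 200 bp was found in 44 (10.5%, 7.72 to 13.8), all of them at 1 edge, so 18.5% of the 1-edge regions rested on 1 or 2 steps of the grid.

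**Figure D1:**
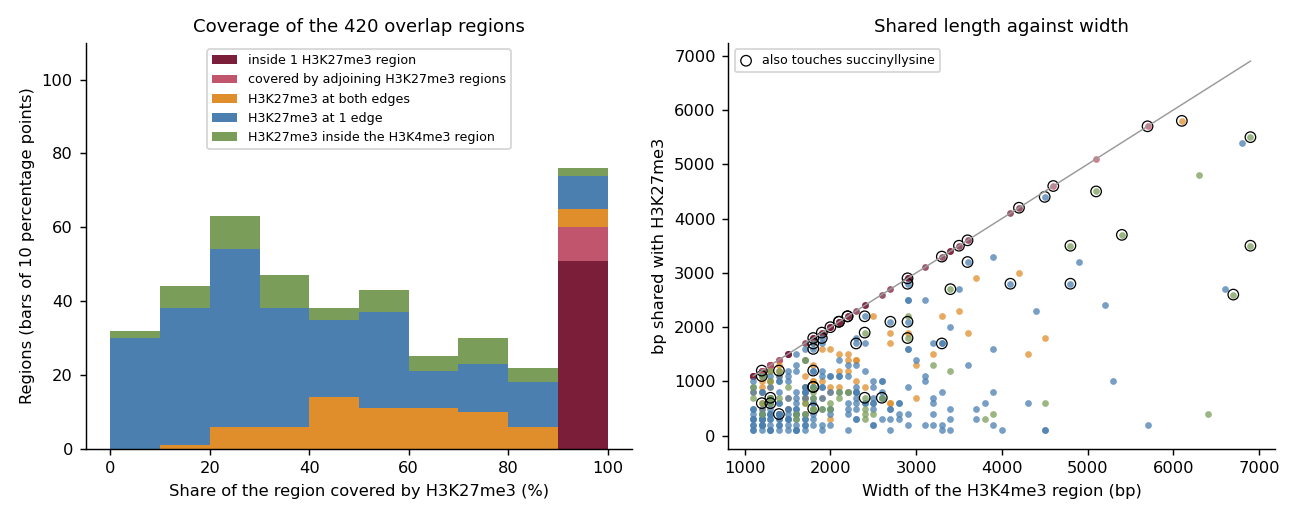
The left panel counts the 420 overlap regions by the share of their width inside H3K27me3, in bars of 10 percentage points, coloured by the form of the overlap. The right panel plots the bp shared with H3K27me3 against the width of the H3K4me3 region in bp, in the same colours, with the line of full coverage and with rings on the 50 regions that also touched succinyllysine. The 60 fully covered regions stand on the line, and the 1-edge regions spread from 100 to 5400 shared bp.

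The plot of coverage against width shows that the forms did not separate by width. The median width was 2000 bp for regions inside a single H3K27me3 region, 1400 bp for those under adjoining regions, 1850 bp for those met at both edges, 1900 bp for those met at 1 edge and 2050 bp for those with H3K27me3 inside. Overlap regions were narrower (median 1900 bp, quartiles 1400 to 2700) than the 12827 H3K4me3 regions of the same width range without H3K27me3 (median 3100 bp, quartiles 2000 to 4100). Of regions of 1100 to 1500 bp, 135 of 1945 (6.94%) were overlap regions. The share was 6.81% at 1600 to 2000 bp, 3.30% at 2100 to 3000 bp, 1.41% at 3100 to 4000 bp, 0.813% at 4100 to 5000 bp and 1.06% (15 of 1413) at 5100 to 6900 bp. Just outside the limits, 35 of 453 regions of 1000 bp and 0 of 23 of 7000 bp touched H3K27me3. Just inside, the counts were 21 of 414 at 1100 bp and 2 of 33 at 6900 bp. At the limit of contact, 20 overlap regions shared exactly 100 bp, while in 32 regions outside the set H3K27me3 began at the next base and shared none.

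The H3K27me3 on the other side of the overlap was wide. The 420 overlap regions touched 528 H3K27me3 regions with a median width of 2000 bp, of which 89 (16.9%) were 5000 bp or wider. Over the whole H3K27me3 list the median was 600 bp and 1469 regions (1.49%) reached 5000 bp, and a wider region has more chance to touch another. More than 1 H3K27me3 region was touched by 111 overlap regions (26.4%), and 13 H3K27me3 regions touched more than 1 overlap region. The 3 that touched most overlap regions were at Hox clusters, the chromosomal arrays of homeobox genes that give cells their position along the body axis. The H3K27me3 region chr15:102901201-102999200 in the HoxC cluster, 98000 bp wide, touched 3 overlap regions, of which 1 reached past its edge, and chr15:102999401-103013800 held 3 more. The 54000 bp region chr11:96279101-96333100 in the HoxB cluster held 3, at Hoxb4, at Hoxb6, and at the adjacent ends of Hoxb8 and Hoxb7.

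At annotated starts the H3K27me3 lay on both flanks and was rarest just after the start. A start of a single strand lay inside 169 overlap regions, starts of both strands inside 6 and no listed start inside 245. The start base itself was inside H3K27me3 in 39 of the 169 (23.1%, 17.0 to 30.2). Apart from the 12 of these that were fully covered, it was inside H3K27me3 in 27 of 157 (17.2%, 11.6 to 24.0). Outside the runs of neighbouring regions described below, 167 starts could be followed over 10000 bp to each side. Of these 167, 115 (68.9%) had H3K27me3 at 2400 bp before the start, 31 (18.6%) at 200 bp after it and 123 (73.7%) at 2200 bp after it. At 10000 bp the share was 30.5% upstream and 28.1% downstream. It was 3.29% and 0.398% at 7529 starts in H3K4me3 regions of the same width range without H3K27me3. H3K4me3 reached less far into the gene: at 2000 bp after the start it was present at 21.0% of the 167 starts and at 72.3% of the 7529. The overlap regions outside runs were also narrower, with a median width of 1800 bp against 3100 bp for the other regions. The reach was not compared at matched width, so it is not separate from this difference. The absence of H3K27me3 at the 7529 starts themselves follows from the choice of regions. Contact with H3K27me3 was also what chose the overlap regions. The H3K27me3 shares on their flanks, and the contrast with the 7529 starts, are therefore description and not a separate result.

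**Figure D2:**
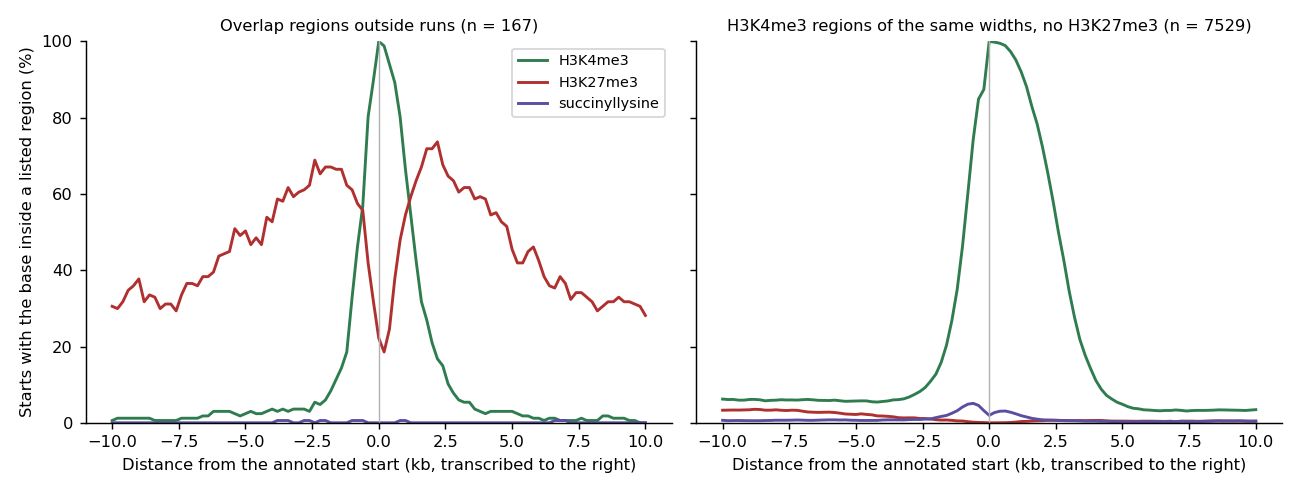
Each line gives the percentage of annotated starts at which the base at a distance in kb from the start, with transcription to the right, lay inside a listed region of H3K4me3, H3K27me3 or succinyllysine. Overlap regions outside runs (167 starts, left) have H3K27me3 on both sides and a trough of 18.6% at 200 bp after the start. H3K4me3 regions of the same width range without H3K27me3 (7529 starts, right) have a broader H3K4me3 profile, and their median width was larger.

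Neither flank stood out beyond the counting interval. Among the 113 1-edge regions with starts of a single strand, H3K27me3 reached over the downstream edge in 64 (56.6%, 47.0 to 65.9) and over the upstream edge in 49. Over all 169, H3K27me3 covered 41.1% of the bp before the start and 37.9% of the bp after it. Starts did not lie in the middle of these regions: the median H3K4me3 length was 641 bp before the start and 1188 bp after it.

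Genes at overlap regions were counted when a region lay within 1000 bp of either end of a protein-coding gene. By this rule 273 of 21887 genes (1.25%) had an overlap region, and 258 of the 420 overlap regions (61.4%, 56.6 to 66.1) lay at a gene end, against 10053 of 12827 other H3K4me3 regions (78.4%, 77.7 to 79.1). This difference depended on width. Among regions of 1100 to 2000 bp, 63.4% of overlap regions (57.0 to 69.6) and 56.3% of the others (54.6 to 58.0) lay at a gene end. These intervals overlap, and counted at listed starts the shares were 48.3% (41.8 to 54.9) and 47.7% (45.9 to 49.4). Among regions of 2100 to 6900 bp, the shares were 58.8% of overlap regions and 85.8% of the others. Away from every listed end and start, 53 overlap regions (12.6%) lay within genes and 88 (21.0%) between genes, against 8.34% and 6.68% of the others. At 1100 to 2000 bp, 13.4% of overlap regions and 20.2% of the others lay within genes, and 18.5% of overlap regions and 17.2% of the others between genes. At 2100 to 6900 bp, 11.5% of overlap regions and 4.38% of the others lay within genes, and 24.2% of overlap regions and 3.16% of the others between genes. The forms also differed in where they lay: at a gene end were 49 of the 70 regions met at both edges (70.0%) and 167 of the 238 met at 1 edge (70.2%), but 18 of the 51 inside a single H3K27me3 region (35.3%) and 21 of the 52 with H3K27me3 inside (40.4%). In that order, 1, 28, 20 and 14 of these lay in the runs described below. In runs 25.4% of overlap regions lay at a gene end, against 68.3% outside runs. The shares by form were not split by run.

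A gene that carries both marks at its ends need not have regions that meet. Both marks lay within 1000 bp of an end in 684 genes. Of these, 248 (36.3%) had an overlap region, 131 (19.2%) had only a narrower H3K4me3 region that touched H3K27me3, and 304 (44.4%) had no H3K4me3 region there that touched H3K27me3 at all. In 25 of the 273 genes at overlap regions the H3K27me3 lay beyond the 1000 bp window.

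The transcription factor families of development held 41 of their 363 genes (11.3%, 8.23 to 15.0) at overlap regions, beside 1.25% of all protein-coding genes. H3K27me3, which the choice of regions used, lay at an end of 200 of these 363 genes and of 2971 of all 21887. For H3K4me3 the counts were 200 and 12163. The 11.3% is therefore not separate from where H3K27me3 lay. LIM homeobox genes had 4 of 12, Hox genes 10 of 39, Zic and Gli genes 2 of 11, Sox genes 3 of 19, bHLH genes 5 of 42 and forkhead genes 5 of 44. Signalling, guidance and nuclear receptor families together had 13 of 304 (4.28%, 2.30 to 7.20). The families were written with results of these data known, neighbouring genes can share a region, and no test was made of these shares. Of the 41 families, 19 had no gene end at an overlap region. Of these 19, 17 had H3K27me3 and 18 had H3K4me3 at an end of 1 or more genes. Among them, named after their values were seen, were Pax genes, with H3K27me3 at 8 of 9 and H3K4me3 at 2, and Nkx genes, with H3K27me3 at 12 of 14 and H3K4me3 at 5. Others were Dlx and Msx genes, with H3K4me3 at 9 of 9 and H3K27me3 at 1, Kruppel-like factor genes, with H3K4me3 at 13 of 17 and H3K27me3 at 2, and cytosolic ribosomal protein genes, with H3K4me3 at 77 of 80 and H3K27me3 at 1. All 8 succinate dehydrogenase genes had H3K4me3 and 0 had H3K27me3 at an end. Starts away from the gene ends were not counted here: annotated starts of Pax2, Lhx4 and Wnt6 lay inside overlap regions. With listed starts in place of gene ends, 12 of the 41 family counts moved beyond a set margin and 29 did not. With at least 50% of the region covered 14 moved, and with the midpoint covered 16 moved. The 19 families with no such gene could not move under these narrower rules. No other alternative moved more than 4.

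**Figure D3:**
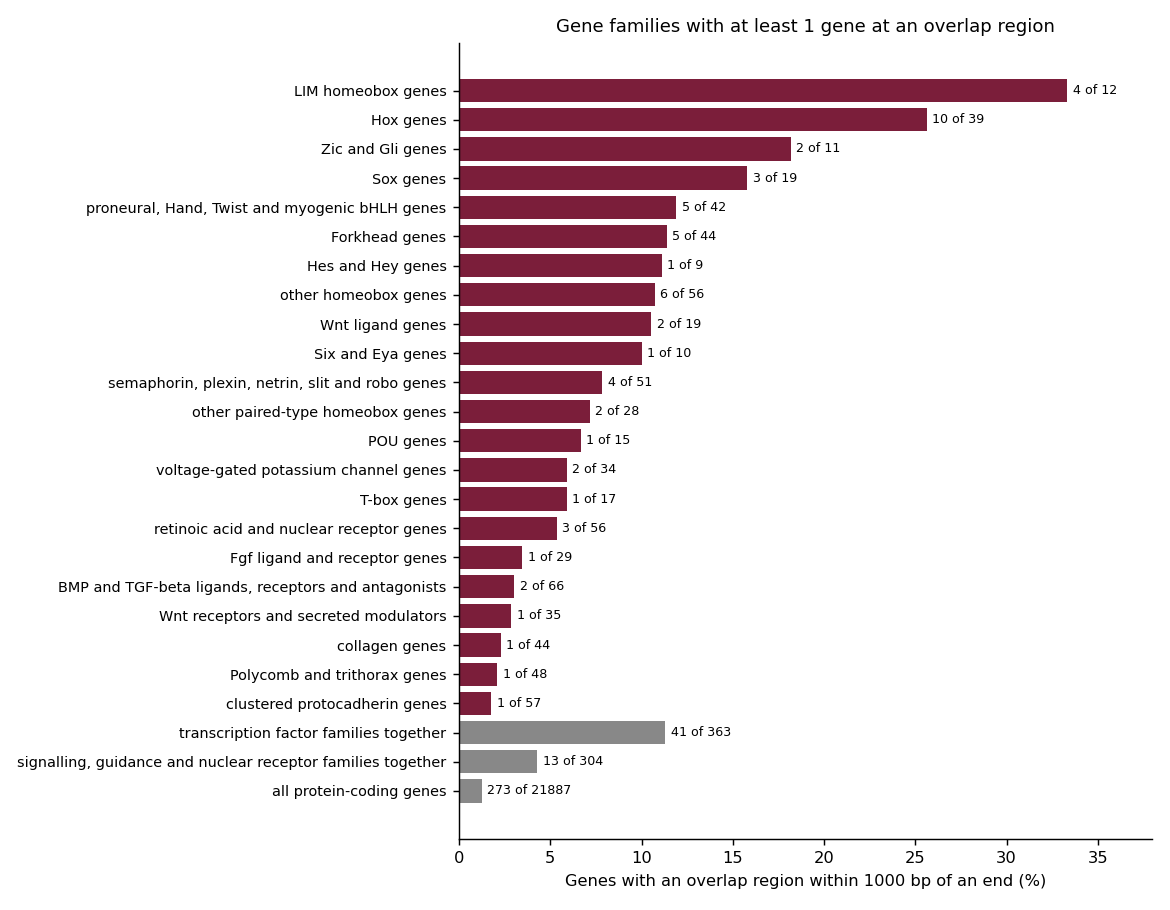
Bars give the percentage of genes in a family with an overlap region within 1000 bp of a gene end, with the count beside each bar, for the 22 families with at least 1 such gene. Grey bars give the transcription factor families together, the signalling, guidance and nuclear receptor families together and all protein-coding genes. LIM homeobox genes (4 of 12) and Hox genes (10 of 39) have the longest bars, and all protein-coding genes have 273 of 21887.

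Of the 60 fully covered regions, 21 (35.0%) lay at a protein-coding gene end, and those that the naming rule picked are given here. The overlap region at Hoxb6 was 3100 bp wide (chr11:96292501-96295600), that at the adjacent ends of Hoxb8 and Hoxb7, mostly within Hoxb8, 2700 bp and that at Hoxb4 2400 bp, all inside the same 54000 bp H3K27me3 region. At Hoxc6 an overlap region of 3400 bp (chr15:103009401-103012800) lay inside 14400 bp of H3K27me3, and at Hoxc4 one of 2600 bp lay inside 39100 bp. Hoxd3 was the Hox gene outside these clusters, and there only 300 of 2300 bp (13.0%) were shared at 1 edge. At Lhx1 an overlap region of 2000 bp (chr11:84524601-84526600) lay inside 26000 bp of H3K27me3. Narrower examples were Pou3f2 (a POU factor of neurons), Wnt1 (a secreted ligand of the midbrain and neural crest) and Gsx1 (a homeobox factor of the forebrain), each with an overlap region of 1100 bp inside a single H3K27me3 region; those of Pou3f2 and Gsx1 lay just outside the gene. Prox1 (1400 bp), Foxa2 (1200 bp; an endoderm and floor plate factor) and Foxb2 (1200 bp) were covered by adjoining H3K27me3 regions, with no gap between them.

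H3K27me3 reached over both edges at Col2a1 (the main collagen of cartilage), where 2300 of 3500 bp (65.7%) were shared, and at Pygo1 (a Wnt pathway cofactor), where 2200 of 3300 bp were. At Sp9 (a zinc finger factor of interneurons and limb) it was 1900 of 3600 bp, at Zic2 (a zinc finger factor of the forebrain) 1900 of 2900 bp, and at Igdcc3 1900 of 2700 bp. These 5 had the most shared bp among both-edge regions at gene ends, and between 52.8% and 70.4% of each region was covered. Foxf1, a forkhead factor of lung and gut mesenchyme, had 1500 of 4300 bp (34.9%) shared, beside an H3K27me3 region of 29200 bp. The growth factor gene Fgf9 had 1300 of 3000 bp, the retinal bHLH gene Atoh7 1100 of 1400 bp, the eye homeobox gene Vax2 1000 of 2300 bp, the lipid-sensing receptor gene Ppara 900 of 2400 bp and the guidance receptor gene Plxna4 1400 of 2300 bp.

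Among regions met at 1 edge, the shared bp ran from most of the region to a single grid step. Shared bp sum all H3K27me3 regions touched, including any wholly inside the H3K4me3 region, so they are not all contact at the edge. Lmx1b, a LIM homeobox gene of limb and midbrain, had the most shared bp. There 5400 of 6800 bp (79.4%) were shared with 2 H3K27me3 regions at chr2:33633901-33640700. Pcdh10 (a protocadherin) shared 3200 of 4900 bp and Zfp979 2500 of 2900 bp. Tfap2b shared 2800 of 4100 bp with 5 H3K27me3 regions, the widest of 1200 bp, and Ankrd33b 2500 of 3100 bp with 2. At Sox2 (chr3:34649801-34655000) the shared 2400 of 5200 bp (46.2%) lay in 2 H3K27me3 regions downstream of the start, and at Foxd1 (chr13:98353801-98358200) 2300 of 4400 bp were shared. The T-box gene Eomes shared 1600 of 2900 bp, the heart and limb bHLH gene Hand2 1600 of 1700 bp, the neuronal bHLH gene Bhlhe22 1300 of 3600 bp and the kidney progenitor homeobox gene Six2 1100 of 1400 bp. Lhx2 shared 1100 of 1900 bp, Sox21 1000 of 3100 bp, Shox2 900 of 2900 bp and Zic5 800 of 1200 bp. Phc2, a subunit of Polycomb repressive complex 1, was the only gene of 48 in the Polycomb and trithorax list at an overlap region and shared 800 of 1700 bp. Contacts of a single grid step were found in the region counted for Hes5, a Notch target, with 100 of 4500 bp (2.22%), and at the thyroid hormone receptor gene Thrb, with 100 of 1600 bp. The Hes5 region began beyond the end of that gene, and the start inside it was that of the neighbouring gene Pank4.

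Of the signalling, guidance, channel and remaining family genes that the naming rule picked, these had contact at 1 edge. The Wnt receptor gene Fzd3 shared 700 of 2600 bp, the Wnt ligand gene Wnt7b 300 of 1200 bp and the activin receptor gene Acvr2b 300 of 3700 bp. Bmp3 shared 200 of 1200 bp and Sox13 300 of 1500 bp. The semaphorin genes Sema4d and Sema5b shared 500 of 1800 bp and 200 of 2000 bp, and Pcdhac2 of the clustered protocadherins shared 500 of 1900 bp. The potassium channel genes Kcnh3 and Kcnh2 shared 700 of 1900 bp and 300 of 2700 bp. In all of these the larger part of the H3K4me3 region was free of listed H3K27me3.

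Where H3K27me3 lay inside the H3K4me3 region, the most shared bp at a gene end were at Alx1, a craniofacial homeobox gene (also the end of Gm34298), with 4800 of 6300 bp shared at chr10:103024801-103031100. Gm42346 had 4500 of 5100 bp and Lrp2, an endocytic receptor of kidney and neural tube, had 1400 of 1700 bp. The mineralocorticoid receptor gene Nr3c2 had 400 of 3900 bp.

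**Figure D4:**
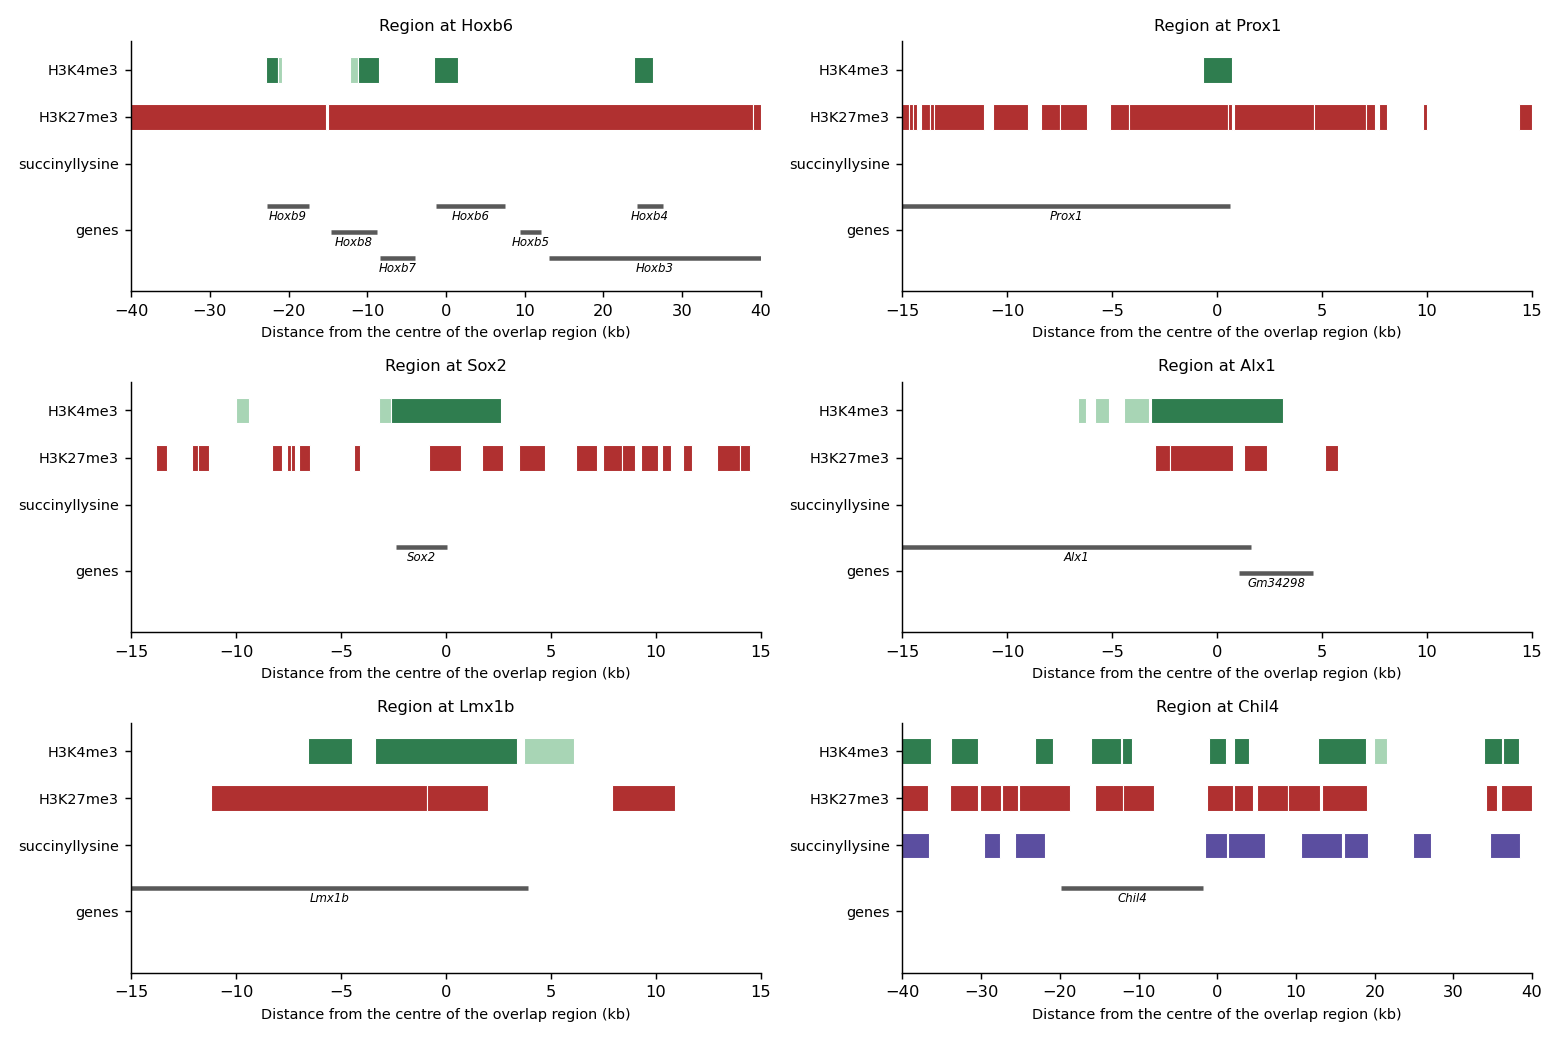
Tracks show listed regions of H3K4me3 (dark green for overlap regions, light green for other H3K4me3 regions), H3K27me3 (red), succinyllysine (purple) and protein-coding genes (grey) by distance in kb from the centre of the overlap region at Hoxb6, Prox1, Sox2, Alx1, Lmx1b and Chil4. Hoxb6 lies inside a 54000 bp H3K27me3 region, Sox2 has separate H3K27me3 regions over its downstream part, and succinyllysine regions are drawn at Chil4 and at none of the other 5.

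Starts in overlap regions were rich in CpG. The 300 bases from 250 before to 50 after a start held a median of 25 CpG (quartiles 17 to 34) at 204 starts of 181 genes inside overlap regions. The median was 22 (15 to 30) at 10165 starts in H3K4me3 regions of the same width range without H3K27me3. It was 6 (3 to 14) at 843 starts inside H3K27me3 and outside H3K4me3, and 3 at 9137 starts inside neither mark. An observed to expected CpG ratio of at least 0.6 was reached by 83.8% of starts in overlap regions (78.0 to 88.6), 79.6% in the other H3K4me3 regions (78.8 to 80.4), 24.4% in H3K27me3 alone and 11.0% in neither. The CpG content of starts in overlap regions thus lay near that of other H3K4me3 regions and above that of H3K27me3 alone. Only 17 starts of 12 genes lay in fully covered overlap regions, with a median of 17 CpG, and 52.9% of them reached the ratio.

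**Figure D5:**
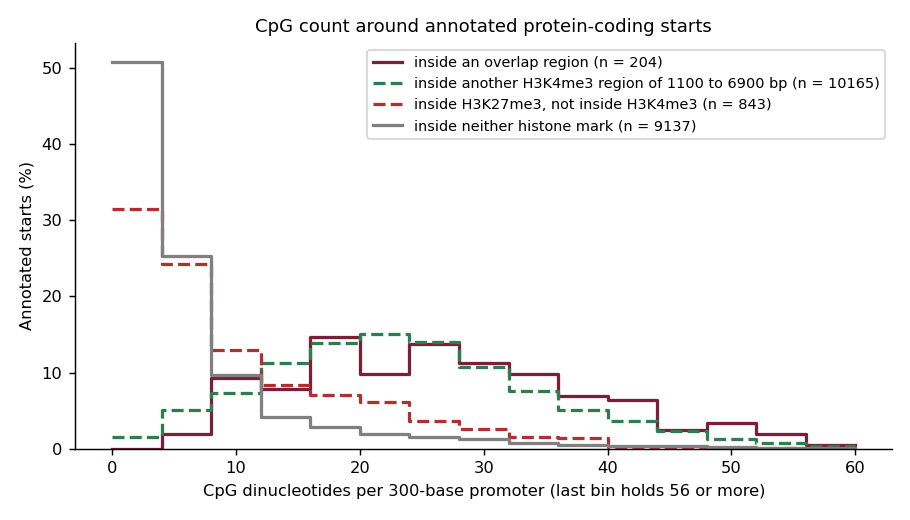
Lines give the percentage of annotated protein-coding starts by the number of CpG dinucleotides in the 300 bases around the start, in bins of 4, for starts inside overlap regions, inside other H3K4me3 regions of 1100 to 6900 bp, inside H3K27me3 without H3K4me3, and inside neither. Starts in overlap regions (median 25) and in other H3K4me3 regions (median 22) have similar distributions, and starts in H3K27me3 alone (median 6) or in neither mark (median 3) lie at low counts.

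Of 3 motifs searched on both strands of these 300 bases, CCAAT had fewer and GGGCGG more matches in overlap regions, and TATAAA a like share. CCAAT was found at 23.0% of starts in overlap regions (17.4 to 29.4) and at 38.5% of starts in the other H3K4me3 regions (37.5 to 39.4), beside 38.2% of all 21263 listed starts. GGGCGG, the GC box, was found at 77.5% of starts in overlap regions (71.1 to 83.0), 69.5% in the other H3K4me3 regions (68.6 to 70.4) and 46.2% of all starts. TATAAA was found at 6.37%, 6.02% and 12.6% of starts in those sets. Starts of a gene share bases and the sets differ in CpG content, so these shares are a description of letters and not of bound factors. Of the printed stretches, Sox2, Foxd1, Prox1 and Zfp985 held GGGCGG and Sox2, Foxd1, Lhx1, Eomes and Zfp985 held CCAAT.

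Of the 420 overlap regions, 67 (16.0%) lay in 8 runs. A run was defined after the data were seen as at least 4 overlap regions with gaps of no more than 50000 bp. The same rule was not applied to the other H3K4me3 regions, so the 16.0% has no share to stand beside and is description only. The HoxB run (chr11:96251001-96320300) had 5 overlap regions, all fully covered, and the HoxC run (chr15:102980601-103036600) had 8, of which 7 were fully covered. On chromosomes 3, 4 and 5, 5 runs held 49 overlap regions, of which 5 lay at a protein-coding gene end. The run with the most members lay over the chitinase-like genes Chil3 and Chil4 (chr3:106142601-106308600), with 16 overlap regions, 9 of them fully covered. A pair of runs on chromosome 4 lay among zinc finger genes: 4 overlap regions at chr4:146453901-146528700 with Zfp992, Zfp981 and Zfp993, and 14 at chr4:147348901-147611200 with Zfp978, Zfp982 and Zfp985. The run chr4:121976401-122045800 had 7 overlap regions and no protein-coding gene, and the run chr5:145639101-145673300 had 8 and only the pseudogene Cyp3a63-ps. The placement of reads that match several copies of a repeated sequence is not described in the labels or files, and its part in the runs was not tested.

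Succinyllysine, which the choice of regions did not use, touched 50 of the 420 overlap regions (11.9%, 8.97 to 15.4) and 1010 of the 12827 other H3K4me3 regions (7.87%, 7.41 to 8.35). Most of the touched overlap regions lay in runs. Succinyllysine touched 31 of the 49 overlap regions in the 5 runs on chromosomes 3, 4 and 5 (63.3%) and, at the Hox clusters, 0 of the 5 in the HoxB run and 1 of the 8 in the HoxC run. Outside all runs it touched 18 of 353 (5.10%, 3.05 to 7.94), and without the 5 runs alone 19 of 371 (5.12%). By width, the share was 7.14% of overlap regions and 7.61% of others at 1100 to 2000 bp, and 18.1% of overlap regions (12.8 to 24.5) and 7.96% of others at 2100 to 6900 bp. Outside runs the shares of overlap regions were 3.32% (1.34 to 6.72) at 1100 to 2000 bp and 7.75% (3.93 to 13.4) at 2100 to 6900 bp. The stretch of chromosome 4 from 145431501 to 147611200, which includes both zinc finger runs, held 28 overlap regions, 19 with succinyllysine. Of these 28, 18 lay in runs, so the regions outside runs include others of this stretch. Of the 19 touched among the 371 without the 5 runs, 11 also lay outside this stretch.

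Overlap regions were also split by position relative to genes. At a protein-coding gene end, 5 of 258 overlap regions (1.94%, 0.632 to 4.46) touched succinyllysine, against 697 of 10053 others (6.93%, 6.44 to 7.45). At no gene end, 45 of 162 overlap regions (27.8%, 21.0 to 35.3) touched it, against 313 of 2774 others (11.3%, 10.1 to 12.5). Of those 45, 29 lay in runs. Outside runs the counts were 2 of 241 overlap regions at a gene end (0.830%, 0.101 to 2.97) and 16 of 112 at none (14.3%, 8.39 to 22.2), and the interval at no gene end includes the share of the others. Some of the touched regions outside runs lay in the chromosome 4 stretch named above. The 5 at gene ends were at Tfap2b, Zfp981, Zfp985, Chil4 and Gm42346, a set named after its values were seen. None of the 59 family genes at overlap regions had an overlap region with succinyllysine at its end. These 59 include the 41 of the transcription factor families. Over all 273 genes at overlap regions, 5 had succinyllysine within 1000 bp of an end. The 0 of 59 lies near that share. Tfap2b, also a developmental factor, belonged to none of the families. The HoxC overlap region with succinyllysine lay within Hoxc6, more than 1000 bp from its ends. In the profile around starts, succinyllysine was present at no more than 1 of the 167 starts at any distance, and at up to 5.10% of the 7529 starts in other H3K4me3 regions, at 600 bp before the start.

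Overlap regions with succinyllysine were wider (median 2500 bp) and more covered by H3K27me3 (median 87.0%) than the 370 without it (1800 bp and 40.3%). In runs lay 32 of these 50. Outside runs the medians were 2500 bp and 76.0% for the 18 with succinyllysine, and 1800 bp and 38.1% for the 335 without it. In runs they were 2550 bp and 90.3% for the 32 with it, and 2300 bp and 84.6% for the 35 without it. Some of the 18 outside runs lay in the chromosome 4 stretch named above. All 3 lists shared bases in 49 of the 50, and 87.0% of the succinyllysine bp inside these regions also lay in H3K27me3, where H3K27me3 covered 78.0% of their width. By form, succinyllysine touched 13 of the 51 overlap regions inside a single H3K27me3 region (25.5%) and 18 of the 52 with H3K27me3 inside (34.6%), but 16 of the 238 met at 1 edge (6.72%) and 1 of the 70 met at both edges (1.43%). In that order, 20, 14, 28 and 1 regions of these forms lay in runs. The shares by form were not split by run, so they are not separate from the runs. The most succinyllysine was in the run over Chil3 and Chil4, where chr3:106234101-106240200 had 5800 of 6100 bp in H3K27me3 and 5900 bp in succinyllysine, and chr3:106292401-106298100 had 5700 and 5600 of 5700 bp. On chromosome 4, the region at Gm42346 (chr4:145445701-145450800) had 4500 of 5100 bp in each of the 2 lists. The 6900 bp regions at the upper width limit were chr4:147426601-147433500, with 5500 bp in each list, and chr4:147600201-147607100, with 3500 bp in H3K27me3 and 4300 bp in succinyllysine. At Tfap2b, outside the runs, 2800 of 4100 bp lay in H3K27me3 and 1800 bp in succinyllysine, and 900 bp lay in both.

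By chromosome, overlap regions made up 6.45% of the H3K4me3 regions of these widths on chromosome 4 (60 of 930), 5.83% on chromosome 3 (40 of 686) and 4.83% on chromosome 15 (28 of 580), with 25, 16 and 8 of them in runs. The lowest share on an autosome was 0.767% on chromosome 7 (7 of 913). The X chromosome had 0 of 379, which allows a share of up to 0.792% when the limit is set at 3 counts, although 3672 H3K27me3 regions were listed on it.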

How the data were processed

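ChIP-seq was made from 16 samples, and no values per sample were used here. Alignment was made with Bowtie2 2.2.3 to mm10, per the submitters' processing notes. Neither the peak caller and its threshold nor the handling of input and replicate samples is named in the labels or files (not given in the sources used here). The values deposited by the authors are start and end positions on a 100 bp grid, treated as 1-based with both ends included, with no score or depth. A RefSeq table on GRCm38.p6 gave 21887 protein-coding genes, and a promoter table gave 21263 starts of 17492 genes. Overlaps, shares and exact Clopper-Pearson intervals were computed with Python 3.11.15, numpy 2.4.6, pandas 2.3.3 and SciPy 1.17.1, and figures were drawn with matplotlib 3.10.9. The overlap code was tested on simulated data. The members and the 41 gene families were chosen with earlier results of these data known. Named genes were the 5 regions at a gene end with the most shared bp in each form, the 8 regions with the most succinyllysine bp, up to 3 genes of each family by shared bp, the 3 H3K27me3 regions holding most overlap regions and examples at the limits. Other names in the text (Hoxd3, Zfp985, Chil4 and the genes in runs among them) were chosen after their values were seen. Alternatives were the overlap rule, wider H3K27me3 regions, merged H3K27me3, the gene window, listed starts and autosomes. Results for 1 gene are not reported here.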

Additional observations from a re-analysis of the deposited data

How the results depend on the processing

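Of the 420 overlap regions, 400 shared at least 200 bp with a single H3K27me3 region and 384 touched an H3K27me3 region wider than the median of its list. A rule of at least 50% coverage left 196, and a rule of the midpoint left 159. Under 50% coverage, the share fully covered was 30.6%, the median coverage 79.9%, the succinyllysine share 22.4%, the gene end share 48.0%, the genes 96 and the family genes 30. Under the midpoint rule these were 37.7%, 88.0%, 25.2%, 44.0%, 71 and 28. Merging H3K27me3 regions within 1000 bp gave 36.9% fully covered and a median coverage of 53.8%. The gene end share was 55.5% with windows of 500 bp, 67.6% with 2500 bp and 46.7% with listed starts. The succinyllysine share was 7.14% at 1100 to 2000 bp and 18.1% at 2100 to 6900 bp. Alternatives chosen after seeing the data left out the runs, which gave 10.2% fully covered, a median coverage of 39.1%, a succinyllysine share of 5.10% and a gene end share of 68.3%. Leaving out regions with succinyllysine gave a gene end share of 68.4%. Joining adjoining H3K4me3 regions gave 431. Run gaps of 20000 and 100000 bp put 49 and 69 overlap regions in runs. No paired analysis was possible because the lists hold no values per sample, and leaving out a replicate was not possible for the same reason. Depth is unknown, so the lists cannot say whether a region missing from one was unmarked or not detectable.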
